A study of Mus musculus with 12 samples.

Results

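The transcripts of 10 genes that regulate fuel use and mitochondrial content were followed in mouse hearts after acute myocardial infarction (AMI). They are the coactivators *Ppargc1a* and *Ppargc1b*, the peroxisome proliferator-activated receptors *Ppara* and *Ppard*, their partner *Rxra*, the estrogen-related receptors *Esrra*, *Esrrb* and *Esrrg*, and the factors *Nrf1* and *Tfam*. They were chosen by symbol from the 53801 genes of the deposited tables, and 10 of 10 were found, each under 1 identifier. Each of the 10 also passed the filter on low counts, with between 258 and 6757 counts per heart.

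RNA was sequenced from whole hearts of adult male C57BL/6N mice in 3 groups of 4 hearts, namely 4 after sham surgery, 4 on day 1 after AMI (day 1 AMI) and 4 on day 7 (day 7 AMI). The labels give no genotype or agent beside the surgery, and AMI was made by permanent ligation of the left anterior descending coronary artery. The labels number the hearts of each group and give no day for sham. Whole hearts mix infarct, border and remote muscle with the cells that enter the wound, so fewer cells of a type and less RNA per cell cannot be told apart. Libraries held between 23204551 and 32166517 counts. Levels are given as CPM, counts scaled to a common library total, after TMM scaling, which sets libraries level on the bulk of their genes. A gene passed when its false discovery rate (FDR) in edgeR's quasi-likelihood test over 15306 genes was below 0.05, and was a DEG when its fold change (FC) was also 2 or greater. Adjusted p-values below are from that test unless another is named.

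The adult heart obtains most of its ATP from fatty acids. PGC-1α and PGC-1β, the products of *Ppargc1a* and *Ppargc1b*, do not bind DNA themselves but are recruited by transcription factors, to which they bring acetyltransferases and the Mediator complex. PPARα binds DNA as a heterodimer with RXRα and drives genes of fatty acid uptake and β-oxidation, whereas the estrogen-related receptors, which need no estrogen, drive genes of the tricarboxylic acid cycle and the respiratory chain. NRF1, here nuclear respiratory factor 1, and the estrogen-related receptors act on nuclear genes for mitochondrial proteins, among them *Tfam*, whose product enters mitochondria, packages mitochondrial DNA (mtDNA) and starts its transcription.

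The sequence before the transcription start of these genes ranged widely in CpG content, also between the windows of one gene. RefSeq start sites on GRCm38.p6 were held for 9 of the 10 genes, in 15 windows of 240 bases that end 11 bases before the start. The windows of *Ppargc1a*, *Esrra* and *Nrf1* are shown because these genes mark a change by day 1, a change after day 1 and no change that passed, respectively. Each is read 5′ to 3′ on the strand of its gene, and capitals mark CpG dinucleotides.
Ppargc1a, chr5:51567736-51567975, minus strand: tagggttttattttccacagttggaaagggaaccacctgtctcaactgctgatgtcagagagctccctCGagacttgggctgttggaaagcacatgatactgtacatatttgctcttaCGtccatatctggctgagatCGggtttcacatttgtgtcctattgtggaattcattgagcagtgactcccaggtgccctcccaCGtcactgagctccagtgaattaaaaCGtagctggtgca
Esrra, chr19:6921819-6922058, minus strand: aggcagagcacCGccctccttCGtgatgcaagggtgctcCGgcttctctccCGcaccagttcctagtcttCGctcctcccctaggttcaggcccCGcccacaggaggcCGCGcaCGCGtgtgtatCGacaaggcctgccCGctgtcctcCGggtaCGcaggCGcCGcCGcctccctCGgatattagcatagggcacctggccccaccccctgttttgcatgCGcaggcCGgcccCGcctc
Nrf1, chr6:30047738-30047977, plus strand: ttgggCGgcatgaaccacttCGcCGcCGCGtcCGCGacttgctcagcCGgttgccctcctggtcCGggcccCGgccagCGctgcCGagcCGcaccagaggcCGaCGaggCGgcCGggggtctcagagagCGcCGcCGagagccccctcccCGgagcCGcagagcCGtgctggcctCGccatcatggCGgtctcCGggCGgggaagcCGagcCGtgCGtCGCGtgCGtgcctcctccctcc
The *Ppargc1a* window held 5 CpG and 47.5% GC, the *Esrra* window 21 CpG and 68.3% GC, and this window of *Nrf1*, the first of 2, held 33 CpG and 75.8% GC. The second window of *Nrf1* held 2 CpG and 42.9% GC, and the 2 windows of *Rxra* held 38 and 1 CpG. The median over 32851 mouse windows was 5 CpG. The CpG counts are a description of these windows and were not related to the changes.

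Letters of 7 binding motifs were searched on both strands of the same windows. The full estrogen-related receptor element TCAAGGTCA was in 0 of the 15 windows (0.381% of all windows), its shorter form AAGGTCA in 1, the second window of *Rxra* (3.94%), and the direct repeat of AGGTCA with 1 base between, which PPAR and RXR dimers bind, in 0 (0.0335%). The half-site AGGTCA, which is part of these 3 motifs, was in 1 window, again of *Rxra* (13.5%). The palindromic NRF1 element was in the *Ppara* window, 31 bases before the start (0.685%), the GABP element CCGGAAGT in the *Tfam* window, 47 bases before the start (2.47%), and the cyclic AMP element TGACGTCA in 0 (1.44%). By GENCODE M21, 150 of the 240 bases of the *Ppara* window and 226 of those of the *Tfam* window lie in exons of the gene itself. GENCODE thus holds exons of these genes upstream of the RefSeq starts used. A match in letters is not a bound site, and a missing match concerns these windows alone.

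Most of the 10 regulators were lower on day 7 after AMI, and none passed as higher at either time. In day 1 AMI against sham, 5 of 10 passed as lower, where 19.9% of all genes tested were lower and 22% higher. In day 7 AMI against sham 8 of 10 passed as lower, against 28.4% of all genes lower and 30.9% higher, and in day 7 AMI against day 1 AMI 4 of 10 were lower, against 22.8% lower and 24.2% higher. The median log2 FC of the 10 was -0.32, -0.64 and -0.25 in these comparisons, beside -0.01, 0.03 and 0.02 over all genes. The changes were modest: 1 of 10 was a DEG in day 7 AMI against sham, *Esrra*, where 5.88% of all genes were lower DEGs, beside 0 of 10 in day 1 AMI against sham (2.98%) and 1 of 10, again *Esrra*, in day 7 AMI against day 1 AMI (2.69%). Hearts did not overlap and were lower for 5, 8 and 3 of the 10 in the 3 comparisons, beside 17.1%, 24.7% and 20.9% of all genes. The first and second comparisons share their sham hearts.

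These directions depend on the scale. With each library divided by its total alone, the median log2 FC of all genes moved to 0.26 in day 1 AMI and 0.43 in day 7 AMI against sham, and with limma on log2(TPM + 1) it moved to 0.27 and 0.47. TPM, which RSEM estimates, is a level per transcript length and a share of its library. On that scale 2 of 10 regulators were lower in day 7 AMI than in sham, *Ppargc1a* and *Esrra*, where 7.24% of all genes were lower. Another 2 were higher, *Ppard* and *Nrf1*, where 62.7% of all genes were higher. In day 1 AMI 0 of 10 were lower and 1, *Ppard*, was higher, beside 5.2% and 43.85% of all genes. The TMM values are therefore changes relative to the bulk of genes in the same heart.

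**Figure D1:**
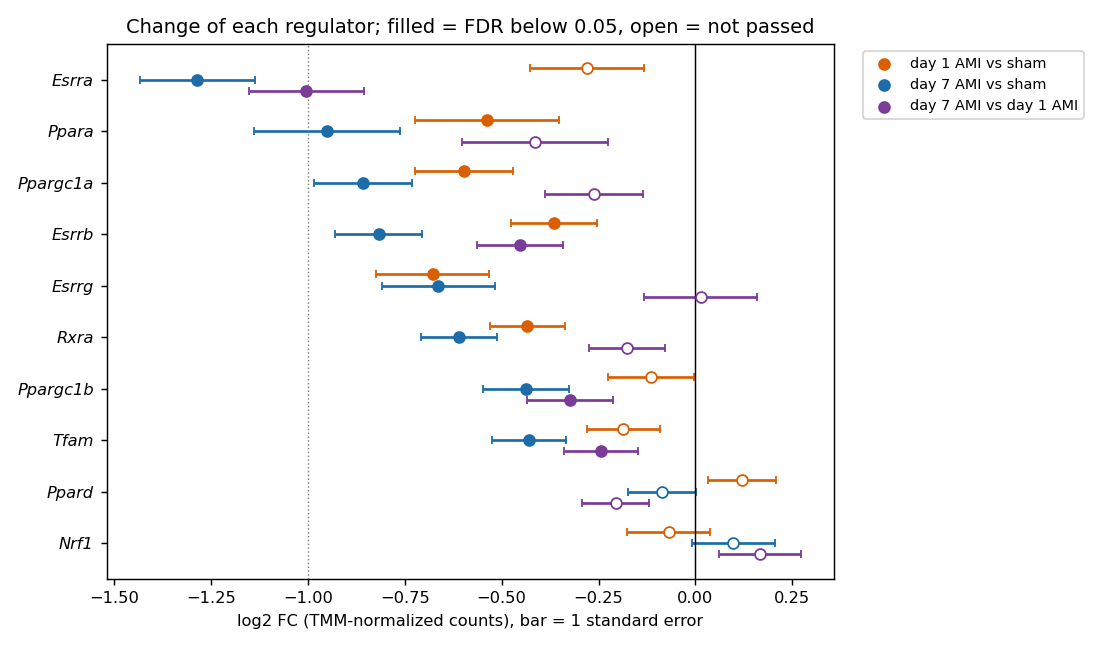
Log2 FC of each regulator (horizontal axis) in day 1 AMI against sham, day 7 AMI against sham and day 7 AMI against day 1 AMI, with bars of 1 standard error; filled points passed the FDR of 0.05, open points did not, and the dotted line marks a 2-fold decrease. *Esrra* lies farthest to the left, at -1.29 in day 7 AMI against sham, while *Ppard* and *Nrf1* have open points in each comparison.

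Of the coactivators, *Ppargc1a* was already lower on day 1. Its sham hearts held 132, 101, 99.9 and 101 CPM, its day 1 AMI hearts 72.7, 61.1, 80.2 and 73.6, and its day 7 AMI hearts 49.6, 66.8, 69.2 and 54.4. Each of the 8 infarcted hearts lay below each sham heart, and the infarcted groups overlapped. *Ppargc1a* fell by 33.9% in day 1 AMI (log2 FC -0.60, SE 0.126, adjusted p = 0.00204) and by 44.8% in day 7 AMI (log2 FC -0.86, SE 0.127, adjusted p = 5.03e-05). The step from day 1 to day 7 did not pass (log2 FC -0.26, 95% interval -0.51 to -0.01, adjusted p = 0.104). Without sham replicate 1, which was the highest, both changes against sham passed, as they did without any other heart.

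*Ppargc1b*, which shares much of the function of *Ppargc1a*, was lower on day 7 alone. Its sham hearts held 26.8, 23.7, 26.4 and 25.3 CPM, its day 1 AMI hearts 25.3, 23.8, 25.3 and 20.1, and its day 7 AMI hearts 20.5, 14.7, 19.8 and 20.3. Day 1 AMI hearts overlapped with sham, and day 7 AMI hearts lay below sham. The day 1 value did not pass (log2 FC -0.11, 95% interval -0.33 to 0.10), whereas *Ppargc1b* fell by 26.2% in day 7 AMI against sham (log2 FC -0.44, SE 0.112, adjusted p = 0.00371) and by 20.1% from day 1 to day 7 (log2 FC -0.32, SE 0.111, adjusted p = 0.0273). This last call was lost without day 1 AMI replicate 1, without day 1 AMI replicate 3 and without day 7 AMI replicate 2 (adjusted p up to 0.0741). With library sizes alone the day 7 call against sham was lost (log2 FC -0.035, adjusted p = 0.800), as was the step from day 1 (adjusted p = 0.178). With limma on log2(TPM + 1) neither passed (adjusted p = 0.367 and 0.651), and the log2 FC against sham was 0.12.

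**Figure D2:**
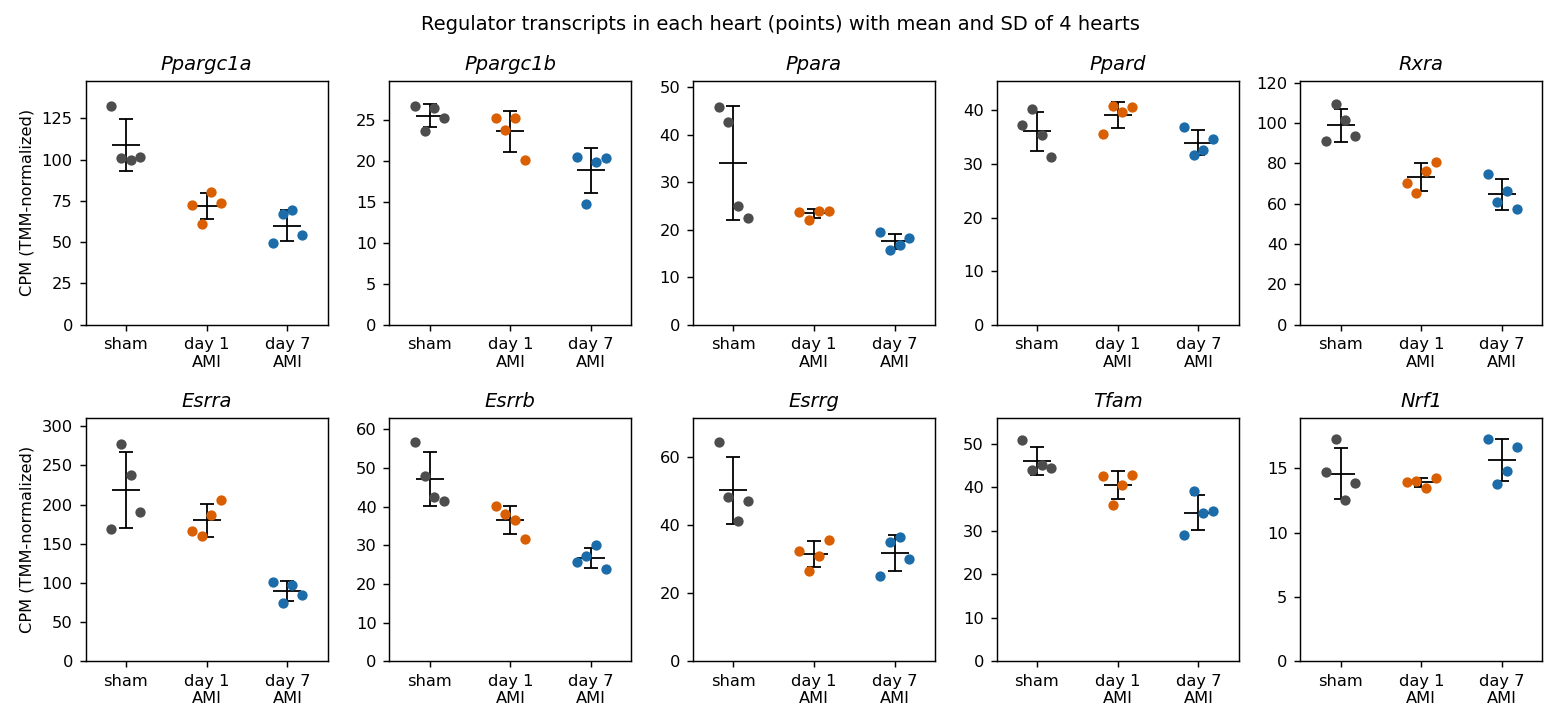
TMM-normalized CPM (vertical axis, from 0, with a scale of its own for each gene) of the 10 regulators in each heart (points), with the mean and SD of 4 hearts, by group. *Esrra* drops between day 1 and day 7, *Esrrg* is low at both times, *Ppara* is split among the sham hearts, and *Nrf1* stays between 12.5 and 17.3 CPM.

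*Ppara*, the receptor of the β-oxidation genes, varied most in sham. Its sham hearts held 45.9, 42.8, 25.0 and 22.6 CPM, its day 1 AMI hearts 23.7, 22.1, 24.0 and 24.0, and its day 7 AMI hearts 19.5, 15.8, 16.8 and 18.2. Sham replicates 3 and 4 were at the level of day 1 AMI, and the day 7 AMI hearts lay below every other heart. *Ppara* fell by 31.1% in day 1 AMI (log2 FC -0.54, SE 0.186, adjusted p = 0.0318) and by 48.3% in day 7 AMI against sham (log2 FC -0.95, SE 0.188, adjusted p = 0.000572). The day 1 call was lost without sham replicate 1 or 2 and without any 1 of the 4 day 1 AMI hearts, with adjusted p up to 0.117, while the day 7 call held without each of the 12 hearts. From day 1 to day 7 the log2 FC of -0.41 did not pass (95% interval -0.78 to -0.05, adjusted p = 0.0840), although the hearts did not overlap. With library sizes alone the day 7 call against sham held (log2 FC -0.55, adjusted p = 0.0191) and the day 1 call was lost (adjusted p = 0.264). With limma on log2(TPM + 1) neither passed (log2 FC 0.016 in day 1 AMI and -0.10 in day 7 AMI, adjusted p = 0.958 and 0.701).

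*Ppard*, the related receptor that also drives fatty acid genes in muscle, did not follow *Ppara*. Sham hearts held 37.3, 40.2, 35.4 and 31.4 CPM, its day 1 AMI hearts 35.7, 40.9, 39.6 and 40.6, and its day 7 AMI hearts 37.0, 31.7, 32.6 and 34.6. The 3 groups overlapped. The log2 FC was 0.12 in day 1 AMI (95% interval -0.05 to 0.29, adjusted p = 0.291) and -0.09 in day 7 AMI against sham (95% interval -0.26 to 0.09, adjusted p = 0.417). With library sizes alone these became 0.39 and 0.31, both past the FDR (adjusted p = 0.00713 and 0.0178).

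*Rxra* encodes the retinoid X receptor that pairs with both PPARs. In sham the hearts held 91.2, 109.3, 101 and 93.8 CPM, its day 1 AMI hearts 70.4, 65.4, 76.5 and 80.8, and its day 7 AMI hearts 74.9, 60.8, 66.2 and 57.3. Each infarcted heart lay below each sham heart. *Rxra* fell by 26.0% in day 1 AMI (log2 FC -0.43, SE 0.0978, adjusted p = 0.00305) and by 34.5% in day 7 AMI against sham (log2 FC -0.61, SE 0.0981, adjusted p = 0.000101), with no step that passed between the 2 times (log2 FC -0.18, 95% interval -0.37 to 0.02). With library sizes alone neither change against sham passed (adjusted p = 0.247 and 0.108).

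Each of the 3 estrogen-related receptors passed as lower on day 7 against sham, and differences between their courses were not tested gene against gene beyond the ratios given further on. *Esrra*, a partner of PGC-1α whose product also acts on the *Esrra* gene itself, held 169, 278, 237 and 190.5 CPM in sham, 167, 160.2, 187 and 206 in day 1 AMI, and 102, 74.3, 97.7 and 85.0 in day 7 AMI. The sham and day 1 AMI hearts overlapped widely, and every day 7 AMI heart lay below every other heart. The log2 FC in day 1 AMI did not pass (-0.28, 95% interval -0.57 to 0.01, adjusted p = 0.140), except without sham replicate 1 (log2 FC -0.39, adjusted p = 0.0443). *Esrra* then fell by 50.2% from day 1 to day 7 (log2 FC -1.01, SE 0.148, adjusted p = 0.000103). Against sham it fell by 59.0% in day 7 AMI (log2 FC -1.29, SE 0.149, adjusted p = 5.76e-06). The day 7 changes passed under each of the 10 other settings that kept every heart of the groups compared, log2(TPM + 1) among them (log2 FC -0.61 against sham and -0.60 against day 1 AMI), and without each heart. Of the exon bases of *Esrra*, 2.07% are shared with *Mir6990* on the same strand and 1.66% with *Trmt112* on the other, and the strand counted is not given in the sources used here.

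*Esrrg*, the receptor best known for the switch to oxidative metabolism at birth, had its change by day 1. In sham the hearts held 64.4, 48.4, 41.4 and 47.0 CPM, its day 1 AMI hearts 32.5, 26.5, 31.0 and 35.8, and its day 7 AMI hearts 25.1, 35.2, 36.7 and 30.0. The infarcted hearts of both times lay in one range below sham. *Esrrg* fell by 37.5% in day 1 AMI (log2 FC -0.68, SE 0.146, adjusted p = 0.00223) and by 36.9% in day 7 AMI against sham (log2 FC -0.66, SE 0.146, adjusted p = 0.00128). Between the 2 times the log2 FC was 0.01 (95% interval -0.27 to 0.30), and its sign turned in some of the other settings.

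*Esrrb*, the third member, fell at each step on the TMM scale. Sham hearts held 56.6, 48.0, 42.4 and 41.3 CPM, its day 1 AMI hearts 40.2, 38.0, 36.5 and 31.7, and its day 7 AMI hearts 25.8, 27.2, 30.0 and 23.9. No 2 groups overlapped in CPM, whereas in TPM the sham hearts (10.99 to 14.2) and day 1 AMI hearts (11.31 to 13.52) did. It fell by 22.3% in day 1 AMI (log2 FC -0.36, SE 0.111, adjusted p = 0.0173) and by 27.0% from day 1 to day 7 (log2 FC -0.45, SE 0.112, adjusted p = 0.00430). Against sham it fell by 43.2% in day 7 AMI (log2 FC -0.82, SE 0.112, adjusted p = 2.55e-05). The day 1 call was lost without sham replicate 1 (adjusted p = 0.0556).

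*Tfam*, the mtDNA factor, was lower on day 7, and *Nrf1* passed in none of the comparisons. *Tfam* held 50.7, 44.0, 45.0 and 44.3 CPM in sham, 42.5, 35.9, 40.6 and 42.8 in day 1 AMI, and 29.1, 39.1, 34.0 and 34.5 in day 7 AMI. The infarcted hearts lay below sham at both times, by a small margin on day 1. Its log2 FC in day 1 AMI did not pass (-0.19, 95% interval -0.37 to 0.00, adjusted p = 0.131). *Tfam* fell by 25.7% in day 7 AMI against sham (log2 FC -0.43, SE 0.0952, adjusted p = 0.00138). This call was lost with library sizes alone (log2 FC -0.027, adjusted p = 0.815). It was also lost with limma on log2(TPM + 1) (log2 FC 0.0061, adjusted p = 0.964). The step from day 1 to day 7 passed narrowly (log2 FC -0.24, SE 0.0948, adjusted p = 0.0476), and with 1 heart left out it passed in 4 of 12 cases, with adjusted p up to 0.137.

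*Nrf1* held 14.7, 17.2, 12.5 and 13.9 CPM in sham, 14.0, 14.0, 13.4 and 14.3 in day 1 AMI, and 17.3, 13.8, 14.8 and 16.6 in day 7 AMI. The 3 groups overlapped. The log2 FC was -0.07 in day 1 AMI (95% interval -0.28 to 0.14, adjusted p = 0.634), 0.10 in day 7 AMI against sham (95% interval -0.11 to 0.31, adjusted p = 0.449) and 0.17 between the 2 times (95% interval -0.04 to 0.38). With library sizes alone the day 7 value became 0.50 and passed (adjusted p = 0.00306).

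Levels of different genes were compared in TPM. *Esrra* was the most abundant of the 10 in every group. Sham hearts held 142 TPM ± 34.9 (SD, n = 4), day 1 AMI hearts 139 ± 19.7, and day 7 AMI hearts 91.3 ± 12.8. *Tfam* followed at 37.4 ± 4.07, 35.2 ± 2.55 and 37.7 ± 5.29. The hearts of these 2 genes did not overlap with those of the next gene in any group. *Ppargc1a* and *Rxra* came next in sham, at 26.1 ± 2.60 and 23.2 ± 3.44 TPM, and their hearts overlapped. *Ppara*, *Ppard*, *Esrrb* and *Esrrg* lay between 14.7 and 11.2 TPM, each overlapping with its neighbour. *Ppargc1b* at 8.14 ± 0.408 TPM and *Nrf1* at 7.57 ± 1.26 were lowest and did not differ beyond their spread.

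The order below *Tfam* changed after AMI. *Ppard* at 19.6 TPM ± 3.09 (SD, n = 4) lay above *Ppara* at 14.0 ± 0.832 in day 1 AMI with no overlap, and again in day 7 AMI, at 19.3 ± 1.82 against 13.0 ± 2.29, whereas the 2 overlapped in sham. *Esrrg* was the lowest of the 10 in day 1 AMI, at 8.93 ± 1.02 TPM, and overlapped with *Ppargc1b* at 9.38 ± 0.720. In day 7 AMI the genes from *Ppara* down to *Ppargc1b* each overlapped with the next.

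**Figure D3:**
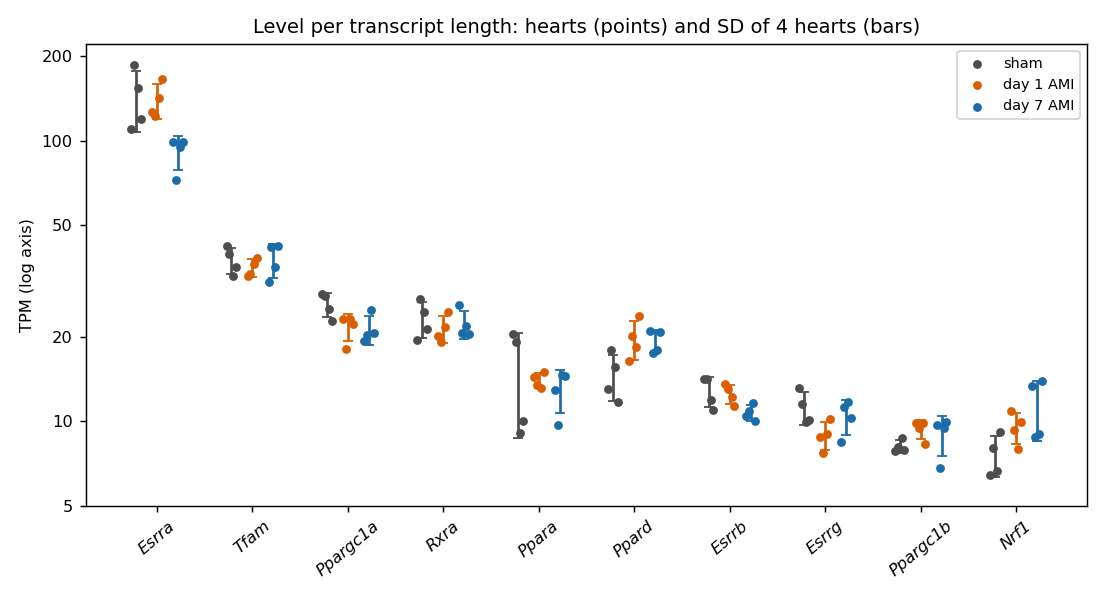
TPM of each regulator in each heart (points, log axis) with bars of 1 SD around the mean of 4 hearts, by group, ordered by the sham mean. *Esrra* stands above the rest at 142 TPM in sham and 91.3 in day 7 AMI, and the hearts of *Ppard* lie above those of *Ppara* in both AMI groups.

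Markers of the heart's cells moved with these changes. Of 11 cardiomyocyte markers, which include *Myh6*, *Tnnt2* and *Ryr2*, 9 were lower in day 1 AMI and 10 in day 7 AMI than in sham, with median log2 FCs of -0.53 and -1.05. Sham hearts had summed levels of 63958 to 74222 TPM, day 1 AMI hearts of 50052 to 60449, and day 7 AMI hearts of 42611 to 52814, so the tissue markers were high in every heart. All 10 leukocyte markers were higher at both times (132.5 to 215 TPM in sham, 564 to 936 in day 7 AMI), as were 6 of 8 fibroblast markers in day 1 AMI and 8 of 8 in day 7 AMI (501 to 607 and 3755 to 6641 TPM in sham and day 7 AMI), while the fibroblast marker *Dcn* was lower in day 1 AMI (log2 FC -0.72). Macrophage markers passed as higher in 8 of 9 cases on day 1 and 9 of 9 on day 7 (253 to 468 TPM in sham, 1105 to 1791 in day 7 AMI). Of 6 endothelial markers 3 were lower in day 1 AMI, 4 were higher in day 7 AMI, and 6 were higher in day 7 AMI than in day 1 AMI. Skeletal muscle markers summed to at most 14.8 TPM in any heart. The 5 erythroid markers ran from 1617 to 15170 TPM within sham, and the 4 atrial markers from 68.1 to 551. Of the erythroid markers 3 passed as lower at each time, *Hba-a1* and *Hba-a2* at both, *Alas2* in day 1 AMI alone and *Hbb-bt* in day 7 AMI alone. The part of these cell markers in the changes of the regulators was not tested.

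Set against the mean of the 11 cardiomyocyte markers in the same heart, the regulators gave the following values, of which none passed after adjustment. This difference of log2 CPM values does not depend on how libraries are scaled. *Ppargc1a* differed from sham by -0.06 in day 1 AMI and 0.00 in day 7 AMI, and *Ppara*, *Rxra*, *Esrrb* and *Esrrg* by between -0.13 and 0.25, with hearts that overlapped. *Ppargc1b* was above sham by 0.42 and 0.41, *Ppard* by 0.66 and 0.78 and *Tfam* by 0.35 and 0.43, each with hearts apart from sham at both times. *Nrf1* was above sham by 0.48 with overlap in day 1 AMI and by 0.96 with none in day 7 AMI. *Esrra* stood at 0.28 and -0.41 against sham and fell by 0.68 from day 1 to day 7, a step at which the hearts did not overlap.

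Of these 30 differences, 9 had hearts fully apart and an exact two-sided permutation p of 0.0286, the smallest that 4 against 4 hearts allow. After adjustment over the 30 the smallest value was 0.0952, so 0 passed. With such a limit on p, an adjusted value below 0.05 required most of the 30 to stand at the smallest p. The count of 0 therefore does not show that regulators and markers moved alike. The markers themselves did not all move alike, since *Mybpc3* passed in day 1 AMI (log2 FC -0.81) and not in day 7 AMI (log2 FC -0.26, adjusted p = 0.157).

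**Figure D4:**
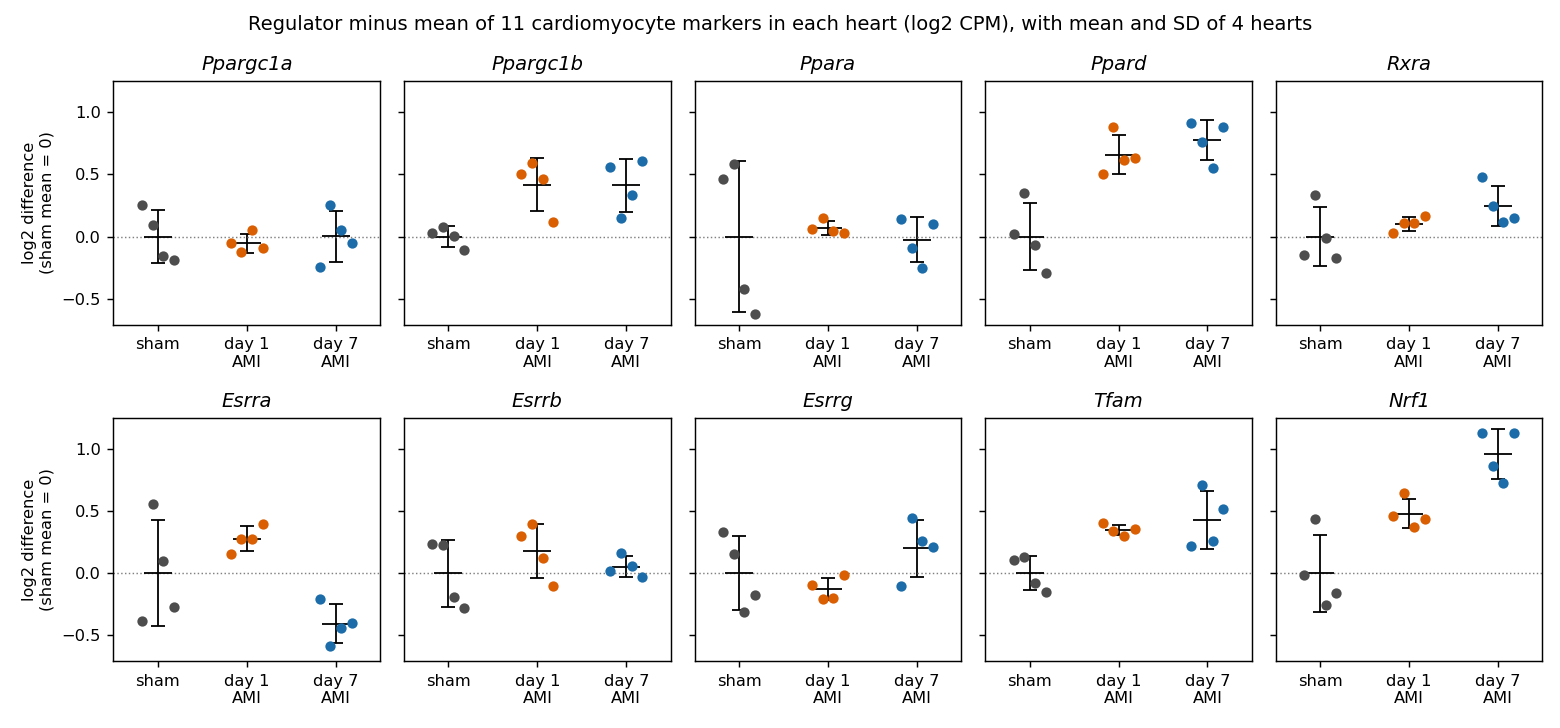
Log2 CPM of each regulator minus the mean of 11 cardiomyocyte markers in the same heart (points; vertical axis in log2 units, with the sham mean set to 0), with the mean and SD of 4 hearts. *Ppargc1a* stays around 0, *Ppard* and *Nrf1* lie above it after AMI, by 0.78 and 0.96 in day 7 AMI, and *Esrra* moves from 0.28 in day 1 AMI to -0.41 in day 7 AMI.

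Ratios of related regulators within a heart need no reference gene. *Ppargc1a* was 4.94, 4.26, 3.77 and 4.00 times *Ppargc1b* in CPM in the sham hearts and 2.87, 2.57, 3.17 and 3.66 times in the day 1 AMI hearts, which did not overlap, a difference of -0.47 in log2. In day 7 AMI the ratio ran from 2.41 to 4.52 and overlapped with both. *Ppara* was 1.23, 1.06, 0.707 and 0.720 times *Ppard* in sham, 0.664, 0.542, 0.606 and 0.593 times in day 1 AMI, and 0.530, 0.499, 0.517 and 0.527 times in day 7 AMI. None of these 3 groups overlapped with another, and the differences from sham were -0.59 and -0.80 in log2. In TPM, by contrast, the ratios of *Ppara* to *Ppard* overlapped between the 3 groups. Sham replicate 3 held 9.08 TPM of *Ppara* and 15.59 of *Ppard*, and day 7 AMI replicate 3 held 14.67 and 17.96.

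The ratio of *Esrra* to *Esrrg* was 2.62 to 5.72 in sham hearts, 5.13 to 6.03 in hearts of day 1, and 2.11 to 4.03 in hearts of day 7. The 2 AMI groups did not overlap (log2 difference -1.02), nor did they for *Esrra* to *Ppara* (log2 difference -0.59). *Nrf1* to *Tfam* ran from 0.279 to 0.393 in sham and from 0.353 to 0.595 in day 7 AMI, with overlap. Of 15 such comparisons 6 had an exact two-sided permutation p of 0.0286, which became 0.0714 after adjustment over the 15, so 0 passed. Here too most of the 15 had to stand at that smallest p for any to pass. The count of 0 does not show that the ratios stayed the same.

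Within a group the regulators did not all vary together. Sham replicate 1 had the highest level of 6 of the 10, *Ppargc1a*, *Ppargc1b*, *Ppara*, *Esrrb*, *Esrrg* and *Tfam*, and the lowest of *Rxra* and *Esrra*. Sham replicate 2 had the highest level of the other 4, *Ppard*, *Rxra*, *Esrra* and *Nrf1*. Genes of the mitochondrial genome took 27.4% of the counts in sham replicate 1 and 17.9% in sham replicate 2, and the part of this difference in those levels was not tested. Over the 12 hearts, after the group means were subtracted, the log2 CPM of *Ppargc1a* correlated with that of *Esrrg* (r = 0.90) and *Tfam* (r = 0.79), and that of *Rxra* with *Esrra* (r = 0.84), whereas *Ppargc1a* and *Esrra* had r = -0.33 and *Esrra* and *Esrrb* r = -0.34. These are descriptions over 12 libraries that share their scaling.

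Other genes of the pathway were taken as lists that were chosen with results of these data known, and each is read against the shares of all genes on the same scale. Of 17 coregulators, 6 were lower and 3 higher in day 1 AMI, and 8 lower and 2 higher in day 7 AMI than in sham, with median log2 FCs of -0.14 and -0.25. These counts moved with the scale, as did those of all genes. With library sizes alone 1 was lower and 5 higher in day 1 AMI, beside 6.93% and 41.1% of all genes. In day 7 AMI 2 were lower and 7 higher, beside 10.8% and 53.8%. With log2(TPM + 1) the counts were 1 and 6 in day 1 AMI (5.2% and 43.85% of all genes) and 1 and 11 in day 7 AMI (7.24% and 62.7%). *Perm1*, a muscle partner of PGC-1α and the estrogen-related receptors, had log2 FCs of -0.73 in day 1 AMI (adjusted p = 0.000397) and -1.08 in day 7 AMI (adjusted p = 4.51e-06). *Pprc1*, the third PGC-1 family gene, went the other way, higher by 0.85 in day 1 AMI (SE 0.185, adjusted p = 0.00254) and by 0.50 in day 7 AMI (adjusted p = 0.0315). *Lpin1*, which encodes a lipid phosphatase that also assists PGC-1α, fell by 0.56 and 0.84 on the log2 scale, and *Prkaa2*, a catalytic subunit of AMP-activated kinase, fell by 0.54 in day 7 AMI.

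Of 12 other nuclear receptors 11 were tested, since *Hnf4a* had 1 count in all. In day 1 AMI 4 were lower and 1 higher, and in day 7 AMI 6 were lower and 3 higher. On library sizes alone these became 1 and 1, and 2 and 4, with log2(TPM + 1) 1 and 1, and 2 and 6, and without day 1 AMI replicate 1 the number lower in day 1 AMI was 2. All genes moved too on these scales, by the shares given above for the coregulators. *Rxrg*, the muscle retinoid X receptor, had log2 FCs of -0.90 and -1.14 (adjusted p = 0.000168 and 6.30e-06), more than *Rxra* in value, a difference that was not tested. *Rxrb* passed in day 7 AMI alone (log2 FC -0.49, adjusted p = 0.00197), and *Pparg*, the adipose receptor, in day 1 AMI alone (log2 FC -0.50, adjusted p = 0.0182). *Rara*, a retinoic acid receptor, was higher in day 1 AMI (log2 FC 0.64, adjusted p = 0.00982). In day 7 AMI *Nr1h3*, the liver X receptor α gene, fell by 0.96 and *Vdr*, the vitamin D receptor gene, rose by 1.21 on the log2 scale (adjusted p = 0.00352 and 0.00983), the latter at a mean of 3.09 CPM or less in every group.

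Of 19 genes for mtDNA transcription and maintenance, 10 were lower and 0 higher in day 1 AMI, and 14 lower and 2 higher in day 7 AMI, with median log2 FCs of -0.25 and -0.49. Scaled by library sizes alone, 1 was lower and 2 higher in day 1 AMI, and 4 lower and 3 higher in day 7 AMI, and with log2(TPM + 1) 0 were lower and 2 higher, and 2 lower and 6 higher. These counts too stand beside the shares of all genes given for the coregulators on each scale. *Gabpa*, a subunit of the nuclear respiratory factor GABP, fell by 0.34 and 0.36 on the log2 scale, *Tfb2m*, which works with TFAM at mitochondrial promoters, by 0.52 and 0.60, and *Polrmt*, the mitochondrial RNA polymerase, by 0.34 and 0.55. *Mterf2* fell by 0.76 and 0.81. The replication genes *Twnk*, the mtDNA helicase, and *Mgme1*, an exonuclease, fell by 1.01 and 1.00 in day 7 AMI and were the 2 DEGs of the list. Each of these changes passed, with adjusted p of at most 0.00993.

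**Figure D5:**
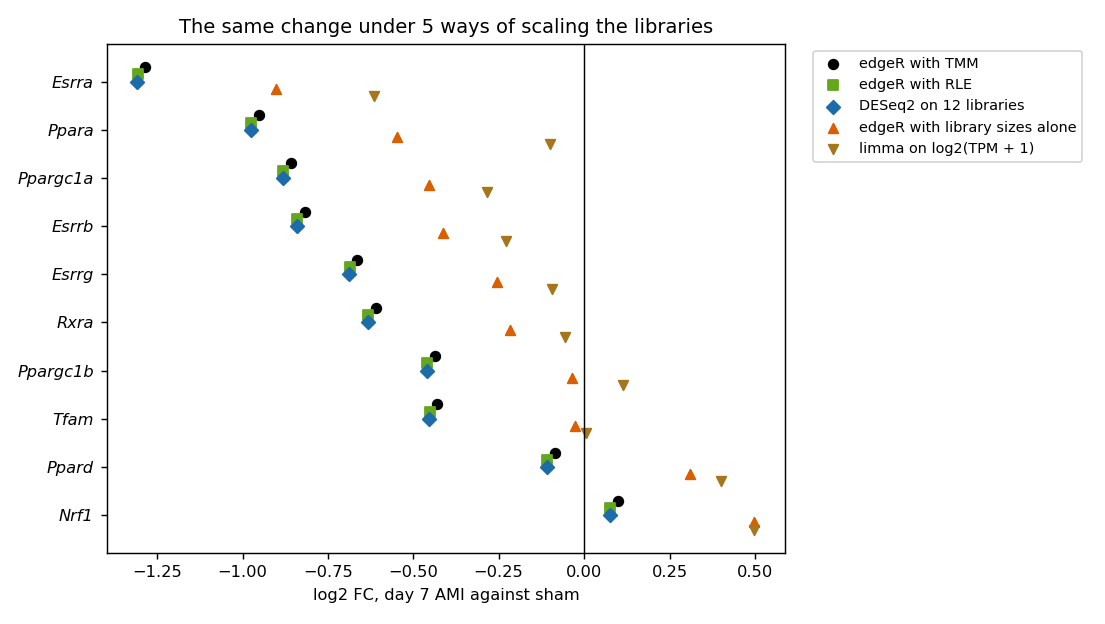
Log2 FC of each regulator in day 7 AMI against sham (horizontal axis) under 5 settings: edgeR with TMM, edgeR with RLE, DESeq2 on 12 libraries, edgeR with library sizes alone, and limma on log2(TPM + 1). The first 3 lie together, and the last 2 lie to the right, at -0.90 and -0.61 for *Esrra*, -0.45 and -0.28 for *Ppargc1a*, and above 0 for *Ppard* and *Nrf1*.

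The genes these regulators act on were lower with few exceptions. Of 28 PPARA target genes 27 were lower and 0 higher in day 1 AMI and again in day 7 AMI, with median log2 FCs of -0.68 and -1.38, and 25 were DEGs in day 7 AMI. *Angptl4*, an inhibitor of lipoprotein lipase, was the gene that did not pass at either time (log2 FC 0.52 and -0.68, adjusted p = 0.314 and 0.159). *Cpt1b*, which admits fatty acids into mitochondria, fell by 0.68 and 1.07 on the log2 scale, and *Pdk4*, the kinase that restrains glucose oxidation, had log2 FCs of -1.74 and -1.85. The sham hearts of *Pdk4* varied widely (852 CPM ± 557, SD) and overlapped with the hearts of both AMI groups. *Acot1*, an acyl-CoA thioesterase, fell by 1.62 and 3.27, its relative *Acot2* by 1.88 in day 7 AMI, while *Ucp3*, a mitochondrial carrier, had log2 FCs of -2.16 and -2.43. With library sizes alone 18 of the 28 were lower in day 1 AMI and 27 in day 7 AMI, beside 6.93% and 10.8% of all genes. With log2(TPM + 1) 14 were lower in day 1 AMI and 26 in day 7 AMI, beside 5.2% and 7.24% of all genes.

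Of 25 targets of the estrogen-related receptors and PGC-1, 25 were lower in day 1 AMI and 25 in day 7 AMI, with median log2 FCs of -0.49 and -1.07. None was a DEG in day 1 AMI and 15 were DEGs in day 7 AMI. In day 1 AMI *Ogdh* and *Fh1* of the tricarboxylic acid cycle and the mitochondrial creatine kinase *Ckmt2* had the log2 FCs of greatest size, -0.64, -0.61 and -0.59. In day 7 AMI *Cox7a1*, *Slc25a4* and *Ndufv1*, of complex IV, the ADP/ATP carrier and complex I, fell by 1.81, 1.39 and 1.39 (adjusted p of at most 4.21e-07). With library sizes alone 10 of the 25 were lower in day 1 AMI, and with log2(TPM + 1) 3 were. In day 7 AMI 25 were lower on either scale. These counts stand beside the shares of all genes given for the PPARA targets.

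Of 13 protein-coding genes of the mitochondrial genome 7 were tested, and the other 6 had at most 3 counts in all libraries together. The 7 were lower at both times, with median log2 FCs of -0.84 and -0.81, and 0 of them passed from day 1 to day 7, when the log2 FCs ran from -0.12 to 0.14. *mt-Nd1* fell by 0.84 and 0.96, *mt-Nd2* by 0.97 and 0.84, and *mt-Nd4* by 0.96 and 0.82 on the log2 scale. With library sizes alone 2 of the 7 were lower in day 7 AMI, and with log2(TPM + 1) 0 were.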

How the data were processed

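RNA of 12 whole mouse hearts was sequenced as 1 library per heart, and hearts were grouped and numbered by their labels. Cutadapt was used by the authors to trim the read pairs, STAR 2.4.0j to align these to GRCm38, and RSEM to quantify genes. They deposited raw counts per gene, whole numbers without normalization, and the TPM of RSEM, which the authors scaled to transcript length and to the total of each library. The counting tool, the strand and the rule for multi-mapping reads are not given in the sources used here. CASAVA 1.8 is named in the submitters' processing notes. Depth was 23204551 to 32166517 counts, with a median of 25338048.

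Counts were tested with edgeR 4.0.16 in R 4.3.3 (TMM, filterByExpr by group, quasi-likelihood test, one fit of 3 groups), with Benjamini-Hochberg adjustment over 15306 genes. SEs are those implied by the F statistic, and 95% intervals are normal intervals from them. Log2 CPM used a prior count of 2. Permutation tests were exact and two-sided (SciPy 1.17.1), and cannot go below 0.0286. The labels do not name the animals, so p-values measure the spread between these samples. No pair of libraries repeated another. On simulated counts for day 7 AMI against sham over 15306 genes, edgeR recovered 100 of 100 genes changed by a log2 FC of 1 and 100 of 100 changed by 2, with 4 false calls.

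Alternatives were DESeq2 1.42.0, edgeR with RLE, with library sizes alone, without mitochondrial genome genes, without the filter, on the groups compared, and with a replicate block, limma 3.58.1 on log2(TPM + 1) and log2(TPM + 0.1) (genes at 1 TPM or more in 4 libraries or more), and each heart left out. The members, lists and tests were chosen with earlier results of these data known. Beside the 10 members, a set of genes of known role and, from each list, the 3 genes with the largest passing change at each time are named, and *Angptl4*, *Hnf4a* and *Mybpc3* after their values were seen. Loci and overlaps are from GENCODE M21, and promoter windows from RefSeq on GRCm38.p6. Python 3.11.15 with matplotlib 3.10.9 drew the figures.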

Additional observations from a re-analysis of the deposited data

Results flagged for a closer look

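Within a group of 4 hearts, 1 heart stood apart from the other 3 in 3 of the 30 groups of member values tested, by the gap to its neighbour as a share of the group's range, where chance gives about 1 in 20. The share was 0.947 for *Ppargc1a* in sham, where replicate 1 was high, 0.844 for *Tfam* in sham, again with replicate 1 high, and 0.898 for *Ppargc1b* in day 7 AMI, where replicate 2 was low. *Ppargc1a* and *Tfam* in day 7 AMI against sham passed without sham replicate 1, and *Ppargc1b* in the same comparison passed without day 7 AMI replicate 2.

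The change against sham differed between the 2 times in 4 of the 10 genes, by edgeR's test of day 7 AMI against day 1 AMI. In the same test 22.8% of all genes passed as lower and 24.2% as higher, so a difference between the times was common. The day 7 change minus the day 1 change was -1.01 in log2 for *Esrra*, -0.45 for *Esrrb*, -0.32 for *Ppargc1b* and -0.24 for *Tfam*. Without day 7 AMI replicate 2 the value of *Ppargc1b* was -0.22 and did not pass (adjusted p = 0.0735).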

How the results depend on the processing

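*Ppargc1a* in day 7 AMI against sham and *Esrra* in both day 7 comparisons passed under each of the 10 alternatives that kept every heart of the groups compared and with each heart left out. Of 660 member values under the alternatives, 561 kept direction and side of the threshold, 51 lost the call, 20 gained one and 28 changed sign.

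The scale moved most. With library sizes alone the genes lower, as counted in the report, became 2 of 10 in day 1 AMI and 4 in day 7 AMI against sham and 2 in day 7 AMI against day 1 AMI, with 1 and 2 higher against sham. With limma on log2(TPM + 1) or log2(TPM + 0.1) they became 0, 2 and 1, with 1 and 2 higher. Over all genes the share higher in day 7 AMI against sham rose from 30.9% to 53.8% with library sizes alone and to 62.7% with log2(TPM + 1). The share lower went from 28.4% to 10.8% and to 7.24%. Signs changed with library sizes alone in day 1 AMI for *Tfam* (0.090), *Ppargc1b* (0.16) and *Nrf1* (0.20), and in day 7 AMI against sham for *Ppard* (0.31). With pseudocounts of 1 and 0.1 on TPM they changed in day 1 AMI for *Ppara* (0.016 and 0.023), *Ppargc1b* (0.18 and 0.20) and *Nrf1* (0.30 and 0.33), in day 7 AMI against sham for *Ppard* (0.40 and 0.42), *Tfam* (0.0061 and 0.0061) and *Ppargc1b* (0.12 and 0.13), and between the 2 times for *Tfam* (0.088 and 0.090) and *Rxra* (0.054 and 0.056). Against the cardiomyocyte markers, log2(TPM + 1) turned *Ppargc1a* (-0.0079) and *Ppara* (0.18) in day 7 AMI against sham and *Ppargc1b* between the 2 times (0.0050), and a prior count of 0.5 turned *Ppargc1a* (-0.00026). The ratio of *Esrra* to *Ppara* in day 1 AMI turned to -0.026 with log2(TPM + 1). In such differences within a heart the library total cancels, apart from the added count. TPM also differs from the counts in being estimated by RSEM per transcript length, and the part of this was not tested. *Esrrg* in day 7 AMI against day 1 AMI turned to -0.0094 with DESeq2 on 12 libraries, -0.012 on the groups compared, -0.0047 with RLE and -0.0026 without the filter.

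With each heart left out, that value of *Esrrg* ran from -0.064 to 0.11, that of *Nrf1* in day 1 AMI from -0.14 to 0.024, and the number of regulators lower in day 7 AMI against day 1 AMI from 2, without day 1 AMI replicate 3, to 5. Coregulators lower in day 1 AMI went from 6 to 3 without sham replicate 1, day 1 AMI replicate 1 or day 1 AMI replicate 2. Those higher went from 3 to 1 in day 1 AMI without sham replicate 1, 3 or 4 or day 1 AMI replicate 1, 2 or 3, and from 2 to 1 in day 7 AMI without sham replicate 3 or 4 or day 7 AMI replicate 1 or 4. Without any 1 of these last 4 hearts, with either DESeq2 fit, without the filter and on the groups compared, mtDNA genes higher in day 7 AMI also went from 2 to 1. Nuclear receptors lower in day 1 AMI went from 4 to 2 without day 1 AMI replicate 1. Without the filter, coregulators lower in day 1 AMI went from 6 to 3 and mtDNA genes lower from 10 to 6.

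Replicate numbers name hearts of different mice and share only a number. Deviations of hearts with one number correlated at -0.24 to 0.23, and 2 of 12 libraries correlated best with their own number. With the replicate block *Tfam* in day 7 AMI against day 1 AMI was not called (log2 FC -0.24, adjusted p = 0.0894), coregulators lower in day 1 AMI went from 6 to 3, and no other call of a regulator changed. Permutation tests with 3 hearts in a group cannot go below 0.0571, and these were read as values. The cause of these shifts was not tested beyond what each setting alters.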

Other observations

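For 4 of the regulators the 3 genes with the most similar course were taken by Pearson's r of log2 CPM over the 12 hearts, among 15306 genes. They are a description, since the hearts share groups and scaling. *Ppargc1a* was followed most closely by *Msi2*, an RNA-binding protein (r = 0.99), *Ghr*, the growth hormone receptor (r = 0.98), and *Mtrf1*, a mitochondrial release factor (r = 0.98). After the group means were subtracted these values were 0.94, 0.91 and 0.90. *Msi2* fell by 0.39 in day 1 AMI and by 0.57 in day 7 AMI on the log2 scale against sham, *Ghr* by 0.54 and 0.72, and *Mtrf1* by 0.48 and 0.78, and each passed at both times.

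*Esrra* was followed by *Mrpl14*, a mitochondrial ribosomal protein (r = 0.99), *Ilvbl* (r = 0.99) and *Fxr2*, an RNA-binding protein (r = 0.99). On day 1 the adjusted p against sham was 0.174, 0.203 and 0.0742, so none of these 3 passed, and each fell from day 1 to day 7, *Mrpl14* with a log2 FC of -1.22 (adjusted p = 1.17e-05). *Esrrg* was followed by *Tmem106b*, *Tfb2m* and *Phactr2* (r = 0.96 each), which were lower in day 1 AMI and did not pass between the 2 times (log2 FC -0.05, -0.08 and -0.04). *Ppara* was followed by *Arfgef2*, *Phf2* and *Gid8* (r = 0.97, 0.96 and 0.96), whose log2 FCs in day 7 AMI against sham were -0.40, -0.28 and -0.46.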
